A study of Mus musculus with 4 samples.

Results

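Transcription factors that set or maintain myeloid cell identity were followed in immune cells of the injured neonatal mouse heart. The 10 genes were Irf1, Irf4, Irf5, Irf8, Cebpb, Cebpe, Id2, Id3, Klf4 and Batf3, taken by symbol from the 32285 genes of the deposited tables. The cells were live CD45+ cells sorted from enzymatically digested C57BL/6 mouse hearts with the atria removed, and each library was made with the 10x Genomics 3' v3 chemistry. All 4 libraries came from mice whose age is labelled P2+7, read here as surgery on postnatal day 2 and collection 7 days later. One library was made for each of 4 groups: PD1 knockout with myocardial infarction (KO MI), PD1 heterozygous with infarction (Het MI), PD1 knockout with sham surgery (KO sham) and PD1 heterozygous with sham surgery (Het sham). PD1 is the inhibitory T cell receptor encoded by Pdcd1, and every group, the Het groups included, carried at least 1 altered Pdcd1 allele. The number of animals behind a library is not given in the sources used here.

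Interferon regulatory factors (the Irf genes) bind interferon response elements, alone or with partners such as PU.1 or the AP-1 family member Batf3. C/EBP factors (Cebp genes) drive granulocyte and inflammatory macrophage programmes, and Klf4 is needed for monocytes, above all the Ly6C-low non-classical ones. Id proteins have no DNA-binding domain of their own and hold E proteins away from DNA, and Id2, Irf8 and Batf3 are all needed for type 1 conventional dendritic cells.

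Levels are given as CPM, the unique molecular identifiers (UMIs) of a gene per 1000000 UMIs of the cells of 1 type in 1 library. Since 3' counts do not allow comparison between genes, levels were compared only within a gene. With 1 library per group no difference has a replicate check, no test across groups was possible and no p-value is given. Intervals are 95% exact intervals (Poisson for CPM, Clopper-Pearson for shares, conditional binomial for ratios) and cover counting error only. A ratio was called higher or lower when it was at least 1.5-fold, with at least 30 UMIs over both libraries and at least 50 cells of the type in each. Background is the share of all genes measured in the same cells that passed the same rule. The 4 comparisons share libraries, so their values are set side by side and not treated as separate evidence.

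The libraries held 7104 (KO MI), 5074 (Het MI), 6407 (KO sham) and 5376 (Het sham) cells past the filters, with median depths between 6559.5 and 8632 UMIs per cell. Between 4 and 13 cell barcodes were shared by any pair of libraries. Cell types were gated on fixed marker lists that hold none of the 10 genes. Macrophages were the main class, with 2744, 2098, 2541 and 1417 cells in the KO MI, Het MI, KO sham and Het sham libraries and median depths of 8712.5, 10673, 10823 and 10756 UMIs. The cells gated as non-classical monocytes also carried classical monocyte markers, at a summed level of 5009, 3566, 3086 and 3409 CPM against 2812, 2974, 3057 and 3065 CPM for their own markers. Pdcd1 UMIs do not check the genotype: T cells had 58.4 CPM in KO MI, 25.7 CPM in Het MI, 28.4 CPM in KO sham and 9.25 CPM in Het sham. The deleted part of the gene is not given in the sources used here, so each library is named by its label, and every direction between genotypes rests on those labels. UMIs of 4 Y-linked genes were found in 0, 1352, 1319 and 663 macrophages of the KO MI, Het MI, KO sham and Het sham libraries. The KO MI library thus held no macrophage with a Y-linked UMI while the others pooled both sexes, and sex cannot be told apart from the KO MI condition in any comparison that uses it.

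The promoters were searched for a motif of the interferon-gamma response, since Irf1 and Irf8 are textbook targets of that pathway. The gamma-activated site, written TTCNNNGAA and searched on both strands, was found in the RefSeq promoter windows (GRCm38.p6, 250 bases before to 50 after the annotated start) of Irf1, Irf8 and Batf3. These 4 stretches are shown, 5′ to 3′ on the plus strand, with the matched letters in capitals.
Irf1, chr11:53769914-53769942: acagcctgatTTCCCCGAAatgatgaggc
Irf8, chr8:120736177-120736205: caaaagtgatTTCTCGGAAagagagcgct
Irf8, chr8:120736195-120736223: aagagagcgcTTCAGAGAAggcggatttg
Batf3, chr1:191098165-191098193: gccacgtgacTTCCACGAAgagcgggggc
The Irf1 site starts 90 bases before the annotated start, the Irf8 sites 171 and 153 bases before it, and the Batf3 site 239 bases before it. The Irf1 and Irf8 sites lie upstream of the gene spans in the GENCODE annotation (chr11:53770014-53778374 and chr8:120736358-120756694, plus strand), while the Batf3 site lies inside its span (chr1:191097847-191108945, plus strand), whose start is earlier than the RefSeq one. The 9 members with a promoter entry had 11 windows, of which 3 held the motif, beside 8.30% of the 32851 mouse promoters searched. The interferon-stimulated response element (GAAA, any 2 bases, GAAA, in 3.44% of promoters), the cyclic AMP response element (TGACGTCA, 1.79%), the AP-1 site (TGANTCA, 7.81%) and the kappa-B site (GGG, any 2 bases, TT, any base, CC, 4.79%) had no match in these 11 windows. A match is a description of letters and shows no binding. Only the spellings given were searched, so other forms of these sites can be present.

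The level of each of the 10 genes was set out over the gated cell types. The order of cell types was taken from the mean of the libraries, over cell types with at least 10 cells in 3 or more libraries, and is a description with no test. Migratory dendritic cells (29, 16, 9 and 3 cells in KO MI, Het MI, KO sham and Het sham) and plasmacytoid dendritic cells (9, 5, 5 and 2 cells) fell under that limit and have no place in the order.

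Irf8, which directs monocyte and type 1 dendritic cell fates and restrains granulocytes, was highest in type 1 dendritic cells among the ordered cell types. It stood there at 595 CPM in KO MI, 531 CPM in Het MI, 712 CPM in KO sham and 828 CPM in Het sham, with 14, 27, 33 and 22 cells. NK cells came next at a mean of 455 ± 218 CPM (SD, n = 4 libraries), and the ranges of both types overlapped. Macrophages followed at 145 ± 12.5 CPM (SD, n = 4), below every NK cell and type 1 dendritic cell value. Neutrophils were near the bottom, with 9, 1, 1 and 7 UMIs in all mature neutrophils of KO MI, Het MI, KO sham and Het sham, and basophils had no Irf8 UMI in any library. Outside the order, Irf8 had 848, 740, 456 and 100 CPM in migratory dendritic cells and 801, 430, 1330 and 466 CPM in plasmacytoid dendritic cells of KO MI, Het MI, KO sham and Het sham, which overlapped the type 1 dendritic cell range.

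Batf3, the AP-1 partner of Irf8 in type 1 dendritic cells, averaged 116 ± 31.7 CPM there and 66.0 ± 17.9 CPM in type 2 dendritic cells (SD, n = 4 each), with overlapping ranges. The few migratory dendritic cells had 151, 297 and 145 CPM of Batf3 in KO MI, Het MI and KO sham, and no Batf3 UMI in the 3 cells of Het sham. Classical monocytes (28.5 ± 8.48 CPM) and macrophages (21.6 ± 3.57 CPM) formed the next step, well above B cells, where 3, 12, 6 and 8 UMIs were counted in KO MI, Het MI, KO sham and Het sham. Id2, which blocks E proteins in dendritic and innate lymphoid cells, was also highest in type 1 dendritic cells among the ordered types, at 768 ± 143 CPM (SD, n = 4) and a lowest value of 661 CPM. Mast cells, next by mean, stayed below that, and type 2 dendritic cells reached 665 CPM in KO MI. Migratory dendritic cells, outside the order, had 1813, 2168, 1794 and 700 CPM of Id2 in KO MI, Het MI, KO sham and Het sham, the last on 14 UMIs. Mast cells, type 2 dendritic cells, macrophages, type 2 innate lymphoid cells and NK cells followed with means between 351 and 436 CPM that did not separate beyond their spread.

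Irf4, known for plasma cell and type 2 dendritic cell programmes, marked the complementary cells. It averaged 114 ± 6.84 CPM in B cells and 38.0 ± 6.59 CPM in type 2 dendritic cells (SD, n = 4 each), while type 1 dendritic cells had no Irf4 UMI in any of the 4 libraries. The largest of the 4 upper limits on that 0 was 19.8 CPM, in KO MI. In macrophages Irf4 was sparse at 6.82, 9.02, 6.42 and 8.08 CPM in KO MI, Het MI, KO sham and Het sham. Irf5 acts below Toll-like receptors. Type 1 dendritic cells, non-classical monocytes and classical monocytes had similar Irf5 (means of 152, 136 and 130 CPM with overlapping ranges). Macrophages had 79.4 ± 3.25 CPM (SD, n = 4). Without cells at the minimum number of markers, Irf5 was highest in non-classical monocytes. The few migratory dendritic cells, outside the order, had 180, 106, 194 and 100 CPM in KO MI, Het MI, KO sham and Het sham, the last on 2 UMIs.

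Cebpb, the C/EBP factor of inflammatory myeloid cells and of non-classical monocyte survival, was a general myeloid gene. Mature neutrophils held 3203, 3964, 3988 and 4553 CPM in KO MI, Het MI, KO sham and Het sham, and basophils, with 3160, 3752, 3001 and 3125 CPM, overlapped them. Non-classical and classical monocytes averaged 2506 and 2272 CPM, and macrophages 815 CPM. Type 1 dendritic cells were far lower, between 48.2 and 99.7 CPM.

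Cebpe, which drives the late maturation of neutrophils and their secondary granules, was higher in the immature than in the mature neutrophil gate. The immature gate rests on granule genes that include Camp, Ltf, Ngp, Lcn2, Cd177 and Mmp8, which lie downstream of C/EBP epsilon. The difference is therefore not independent of the gating and is given as a description. Immature neutrophils held 354 CPM in KO MI, 372 CPM in Het MI, 412 CPM in KO sham and 433 CPM in Het sham, with 60, 41, 42 and 36 cells. Mature neutrophils held 117, 131, 99.4 and 105 CPM in the same order of libraries, so that the stages did not overlap. A Cebpe UMI was seen in 75.0%, 75.6%, 73.8% and 61.1% of immature cells and in 18.0%, 21.9%, 18.5% and 17.6% of mature cells. Immature cells were deeper (medians of 4903.5 to 6047 UMIs, against 1932.5 to 2309 in mature cells), and after thinning to 2000 UMIs the shares were 50%, 47.4%, 35.9% and 43.8%, against 19.2%, 19.6%, 17.7% and 13.6%. In B cells, which should lack the gene, 0, 1, 2 and 0 UMIs were counted at median depths of 3216 to 4243 UMIs. Macrophages held 64, 47, 39 and 15 Cebpe UMIs (2.20, 1.70, 1.19 and 0.892 CPM), in cells where mature neutrophil markers summed to 262, 203, 213 and 106 CPM, and the part of those markers in that level was not tested.

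**Figure D1:**
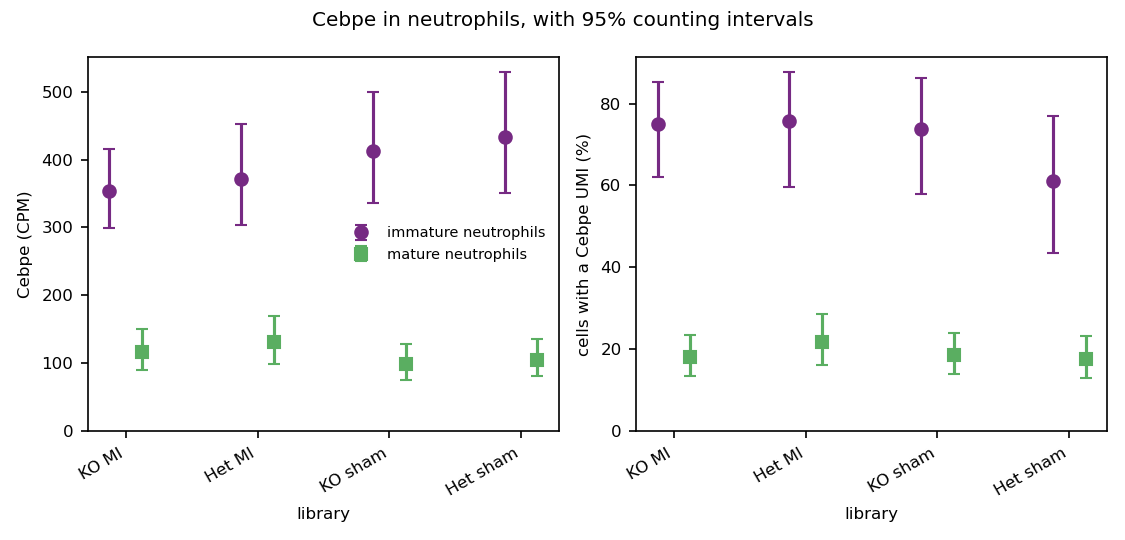
Cebpe in immature (circles) and mature (squares) neutrophils of each library, as CPM on the left and as the percent of cells with a Cebpe UMI on the right, with 95% counting intervals. Immature cells lie between 354 and 433 CPM, above the 99.4 to 131 CPM of mature cells, in all 4 libraries. Immature cells were gated on granule genes, most of them downstream of C/EBP epsilon.

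Klf4 was highest in type 2 innate lymphoid cells, at 849, 869 and 886 CPM in KO MI, Het MI and KO sham (30, 21 and 21 cells), and 81 UMIs were counted in the 7 such cells of Het sham. Non-classical monocytes (452 ± 50.9 CPM), fibroblasts (426 ± 105 CPM) and classical monocytes (385 ± 60.7 CPM; SD, n = 4 each) came next and overlapped. Id3, which acts in B, T and endothelial cells and below BMP and TGF-beta signals, had its highest levels outside the immune gate, in the few endothelial cells (1135 ± 270 CPM) and fibroblasts (661 ± 102 CPM) that came through the sort (SD, n = 4 each). Among immune cells, pro-B and pre-B cells (200 CPM) and non-classical monocytes (193 CPM) led, with ranges that overlapped. Irf1, the interferon-gamma-induced factor, was likewise highest in endothelial cells (199 ± 37.4 CPM; SD, n = 4) among the ordered types, and pro-B and pre-B cells, macrophages, non-classical monocytes and mature neutrophils did not separate, with means of 100 to 113 CPM. The few migratory dendritic cells had 248, 278, 272 and 100 CPM of Irf1 in KO MI, Het MI, KO sham and Het sham, against 182, 255, 179 and 178 CPM in endothelial cells, and plasmacytoid dendritic cells had 3, 13, 6 and 5 Irf1 UMIs in all.

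**Figure D2:**
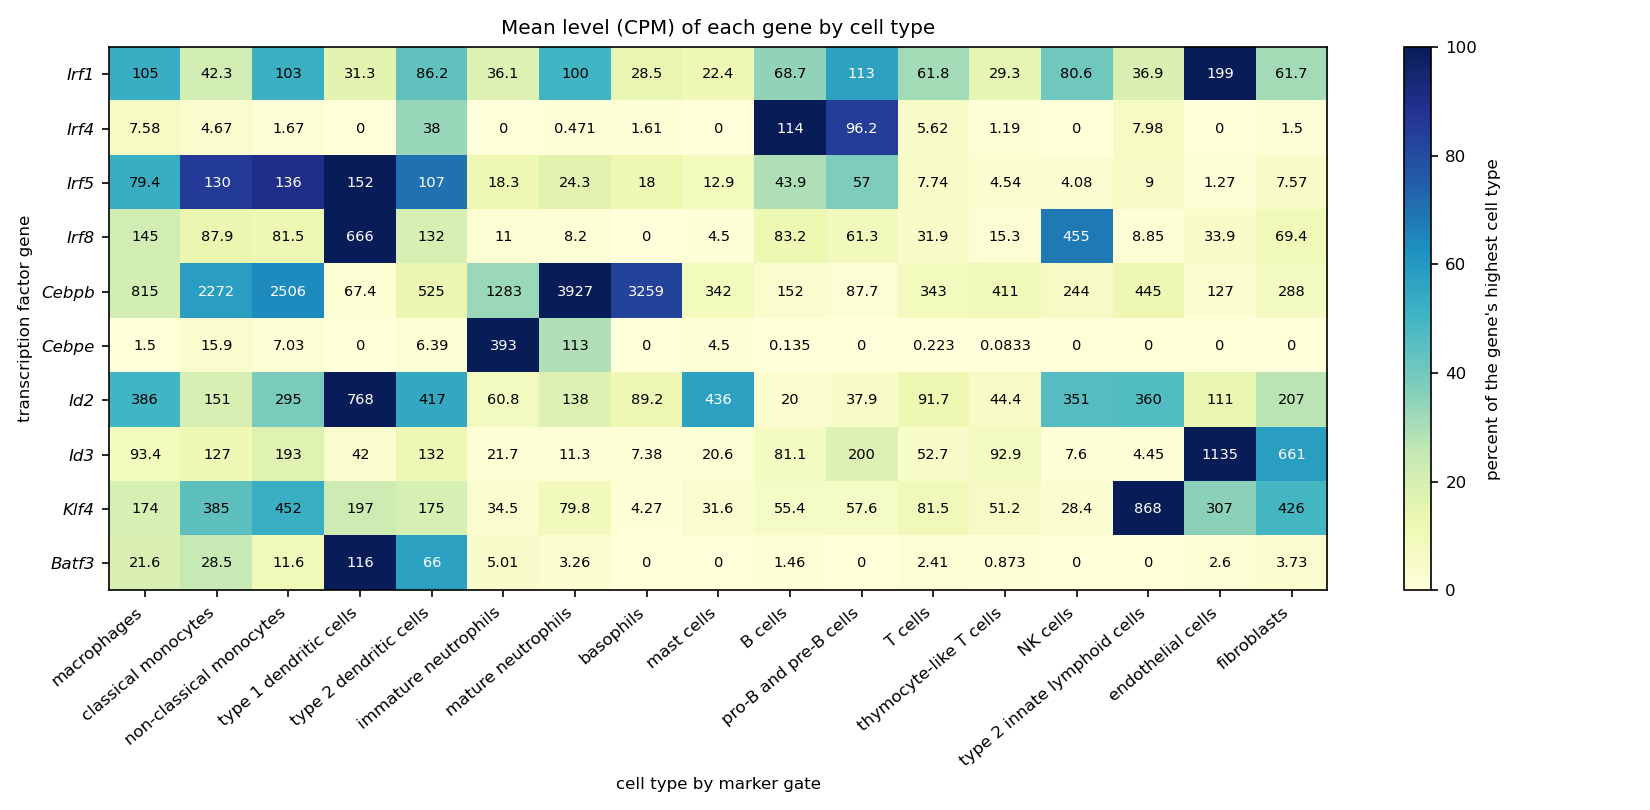
Mean level of each gene (rows) in each cell type (columns; those with at least 10 cells in 3 or more libraries), averaged over the libraries; numbers are CPM and the shade is the percent of the gene's own highest cell type shown. Among the cell types shown, Irf8, Batf3, Id2 and Irf5 are highest in type 1 dendritic cells (666, 116, 768 and 152 CPM), Irf4 in B cells (114 CPM), Cebpb and Cebpe in the 2 neutrophil stages (3927 CPM in mature and 393 CPM in immature cells).

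The genes whose levels followed each member most closely were taken by Pearson correlation of log2(CPM + 10) over 34 pairs of cell type and library (11 cell types with at least 50 cells), among 6220 genes. These points share libraries and depths, and the values are given as a description. No dendritic cell type reached 50 cells in any library, nor did the gated innate lymphoid cells, so none is among these points. Among the ordered types, Irf8, Batf3, Id2 and Irf5 were highest in dendritic cells and Klf4 in innate lymphoid cells. The likenesses of these genes therefore leave out the cells where they were highest. Immature neutrophils, where Cebpe was highest, entered from KO MI only (60 cells). Endothelial cells, where Id3 and Irf1 were highest, also entered from KO MI only (69 cells). Irf4 was most like the B cell genes Pou2af1 (r = 0.98), Cd79a and Vpreb3 (r = 0.97 each), and Cebpe was most like Slfn4, Mapk13 and Stfa1 (r = 0.98, 0.98 and 0.97). Cebpb was most like Rnf149, Ccl6 and Gpr35 (r = 0.96, 0.95 and 0.95). Irf5 was most like Rassf4, Susd3 and Pld4 (r = 0.95, 0.94 and 0.94), and Batf3 was most like Ifi211, Msr1 and Fcgr1 (r = 0.92 each). Looser likenesses were found for Klf4 with Rras, Tppp3 and Ccdc88a (r = 0.92, 0.90 and 0.89), for Id2 with Errfi1, Metrnl and Cdk14 (r = 0.89, 0.87 and 0.85) and for Id3 with Map4k3, Il6st and Plscr3 (r = 0.86, 0.86 and 0.85). Irf8 reached 0.84 with Lrrk1, 0.82 with Reep5 and 0.78 with Pfdn5. Irf1 had the loosest, with Clec2d, Tgfbr2 and Mylip (r = 0.75, 0.73 and 0.70).

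Infarction with 1 intact Pdcd1 allele (Het MI against Het sham) was the comparison in which most of the 10 genes were higher in macrophages. Irf1, Id2, Id3, Klf4 and Cebpe were called higher, 5 of 10 members against a background of 6.81% of genes, and none was called lower (background 6.45%). The members' median log2 ratio was 0.62, against −0.07 over all genes.

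Id2 stood at 505 CPM in Het MI macrophages and at 239 CPM in Het sham macrophages, a log2 ratio of 1.08 (1.03 to 1.13). Id3 had 118 and 59.4 CPM, a log2 ratio of 0.98 (0.88 to 1.09). Irf1 had 133 and 70.1 CPM, a log2 ratio of 0.92 (0.83 to 1.02). The Het sham library was the lowest of the 4 for each of these 3 genes, and the other 3 libraries lay closer together: 362, 505 and 437 CPM of Id2, 96.4, 118 and 100 CPM of Id3, and 115, 133 and 101 CPM of Irf1 in KO MI, Het MI and KO sham.

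Klf4 had 201 CPM in Het MI and 127 CPM in Het sham macrophages, a log2 ratio of 0.67 (0.59 to 0.74), with KO MI at 200 CPM and KO sham at 168 CPM. Cebpe was called on 47 and 15 UMIs (log2 ratio 0.93, 0.07 to 1.88), and its call ended when mixed-lineage droplets were kept (0.20). Cebpb was higher without reaching the rule, with 950 and 641 CPM (0.57, 0.53 to 0.60). Irf5 (81.4 and 81.8 CPM), Batf3 (20.2 and 19.8 CPM), Irf4 (9.02 and 8.08 CPM) and Irf8 (141 and 155 CPM; log2 ratio −0.13, −0.20 to −0.06) stayed within 0.16 of equal levels on the log2 scale.

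The share of macrophages with an Irf1 UMI was 61.7% in Het MI and 40.2% in Het sham, and 21.9% and 12.2% after thinning each cell to 2000 UMIs. For Id2 the shares were 74.5% and 56.6%, and 46.4% and 28.7% after thinning. The order of the 4 libraries was the same at equal depth for both genes. In B cells, which hold little Id2, between 5.37% and 9.93% had an Id2 UMI, and no cell type that should lack Irf1 was at hand.

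**Figure D3:**
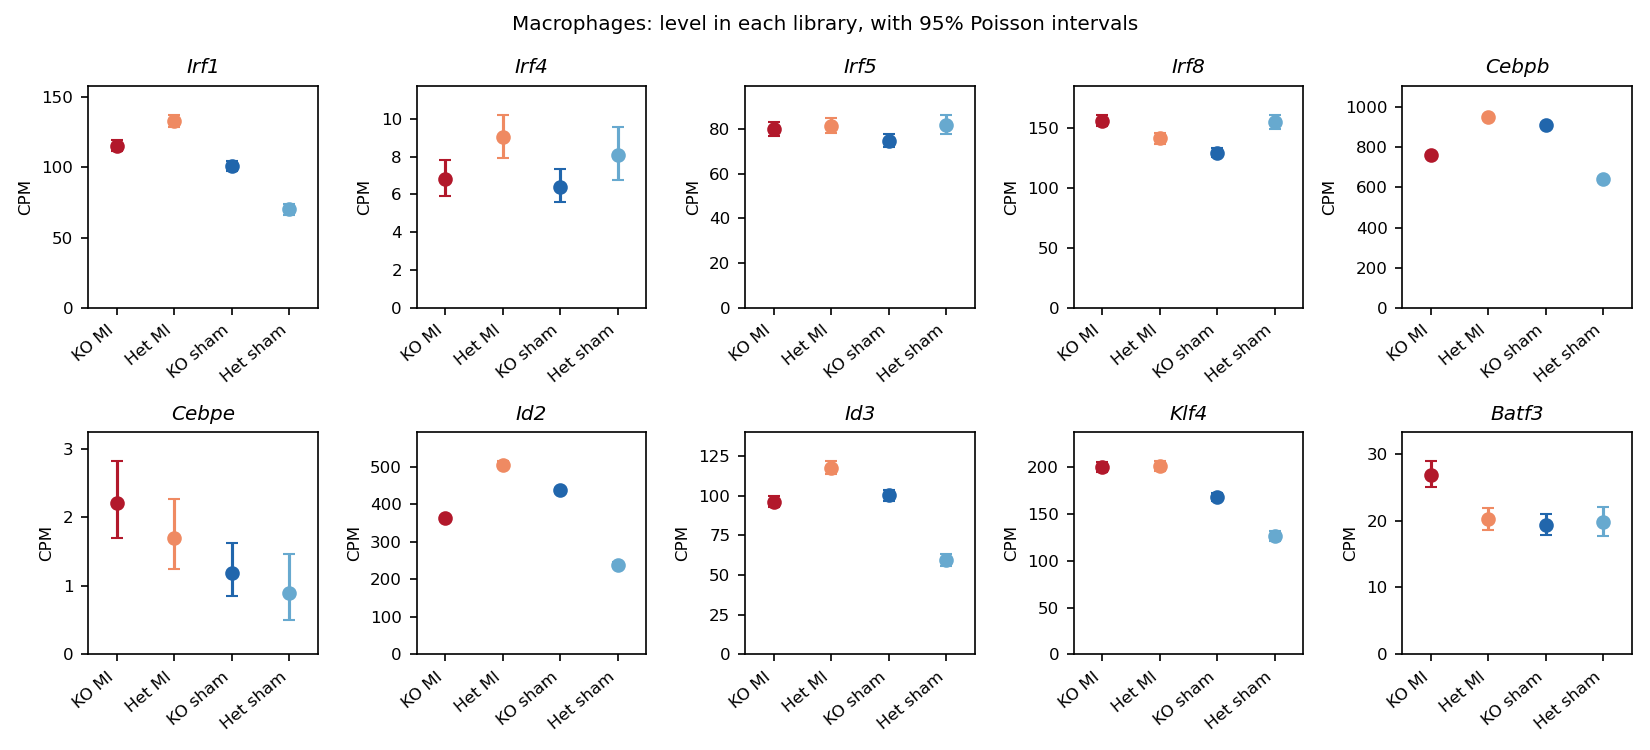
CPM of each gene in macrophages of the KO MI, Het MI, KO sham and Het sham libraries (1 library each), with 95% Poisson intervals that cover counting error only. Irf1, Id2, Id3, Klf4 and Cebpb are lowest in Het sham (70.1, 239, 59.4, 127 and 641 CPM), while Irf5 lies between 74.7 and 81.8 CPM in all 4.

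Genes that respond to tissue digestion moved beside these members. Of 9 immediate early genes measured in macrophages, 4 were called higher in Het MI than in Het sham (Fos, Junb, Egr1 and Dusp1) and none lower, with a median log2 ratio of 0.52 (background 6.81% of genes higher). Junb, an AP-1 subunit, had 2246 CPM in Het MI and 1119 CPM in Het sham (1.01, 0.98 to 1.03). In KO sham against Het sham macrophages 3 of the 9 were called higher (background 4.02%), and Junb had 1884 against 1119 CPM (0.75, 0.73 to 0.78). The part of digestion in the members' values was not tested. Of the 9 listed genes of BMP and TGF-beta signalling, some of them targets of it, Smad6, Skil and Bmp2 were called higher in Het MI and none lower. Their relation to the Id values was not tested. Among other members of the same families, none of 5 C/EBP genes, 5 Irf genes and 4 Id and E protein genes was called, and of 6 other Klf genes Klf9 and Klf10 were called higher and Klf2 lower (101 against 176 CPM).

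Within each library the macrophages differed among themselves, and states were gated on markers that hold no member. The inflammatory state (Cxcl1, Cxcl2, Il1b and Nlrp3) took 23.4%, 26.9%, 21.5% and 7.69% of macrophages in KO MI, Het MI, KO sham and Het sham. State cells were deeper than the rest, with medians of 11939 to 16319 UMIs against 8077 to 10403. In all 4 libraries these cells had higher Cebpb (log2 ratios of 0.67 to 0.96 over the other macrophages), Id2 (0.54 to 0.68), Id3 (0.58 to 0.78) and Irf1 (0.24 to 0.81). Since the state was rarest in Het sham, the macrophages outside it were compared alone. Het MI over Het sham was then 0.92 for Id2, 0.87 for Irf1, 0.78 for Klf4 and 0.71 for Id3, all still called, and 0.38 for Cebpb. The gate needs a UMI of all 4 markers, so shallower cells of the state can remain among the others. The part of the state in the members' ratios was not tested.

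Cells high in MHC class II had higher Irf4 in all 4 libraries (log2 ratios of 1.26 to 1.64), with 12.1, 18.8, 15.2 and 22.9 CPM in state against 5.05, 7.26, 5.12 and 7.36 CPM in the other macrophages of KO MI, Het MI, KO sham and Het sham. Batf3 was also higher there (0.41 to 0.90) and Irf1 lower (−0.68 to −0.13), each in 4 of 4 libraries with intervals that excluded 0. Resident-marker macrophages (Lyve1, Timd4, Folr2 and Cd163) had higher Klf4 (0.24 to 0.45) and lower Id2 (−0.45 to −0.28) in 4 of 4 libraries. Irf4 was higher in them too in 4 of 4 libraries (0.42 to 1.28), with intervals above 0 in 3. In KO MI it had 12.7 CPM in resident-marker cells against 5.24 CPM in the others, so higher Irf4 was not particular to the MHC class II state.

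Dividing macrophages had less Klf4 in every library. The levels were 137, 151, 121 and 94.7 CPM in dividing cells against 220, 222, 195 and 144 CPM in the others, for KO MI, Het MI, KO sham and Het sham (log2 ratios of −0.69 to −0.55). Irf8 (−0.41 to −0.15) and Cebpb (−0.20 to −0.11) were lower too, in 4 of 4 libraries. Klf4 is known as a brake on the cell cycle in several cell types. The Cxcl9-expressing state reached the minimum of 20 cells in KO MI alone, with 136 cells, where Irf8 was 213 against 151 CPM in the other macrophages (0.50, 0.36 to 0.63) and Batf3 38.4 against 25.8 CPM (0.57, 0.25 to 0.88).

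**Figure D4:**
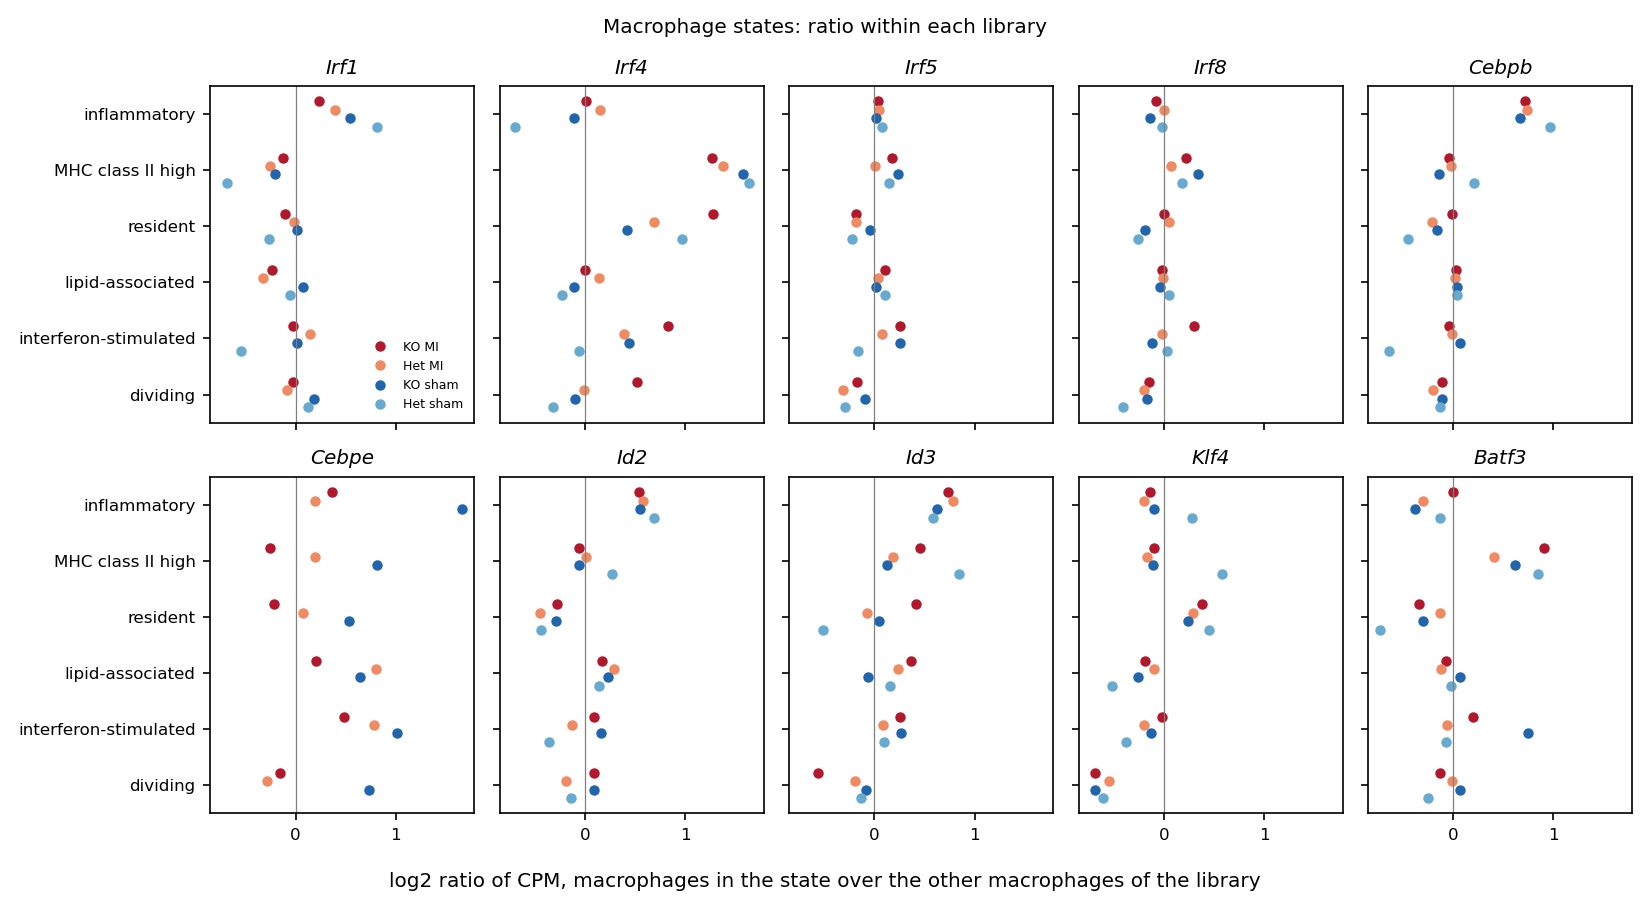
Log2 ratio of CPM in macrophages of a state over the other macrophages of the same library, 1 panel per gene and 1 point per library. Cebpb, Id2, Id3 and Irf1 lie right of 0 in the inflammatory state in all 4 libraries. Irf4 does so in the MHC class II high (1.26 to 1.64) and resident (0.42 to 1.28) states, and Klf4 lies left of 0 in dividing cells (−0.69 to −0.55).

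Infarcted hearts labelled KO and Het were compared next. In macrophages none of the 10 members was called in KO MI against Het MI, where 4.02% of genes were called higher and 3.98% lower. The members' median log2 ratio was −0.11, and that of all genes was also −0.11. Id2 had 362 CPM in KO MI and 505 CPM in Het MI (log2 ratio −0.48, −0.52 to −0.44), Cebpb had 759 and 950 CPM (−0.32, −0.35 to −0.30) and Id3 had 96.4 and 118 CPM (−0.29, −0.36 to −0.21). Batf3 went the other way with 26.9 and 20.2 CPM (0.41, 0.26 to 0.57). Klf4 (200 and 201 CPM) and Irf5 (79.9 and 81.4 CPM) were within 0.03 of equal on the log2 scale.

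These small shifts stood beside large ones in the interferon genes, which were measured in the same macrophages. Of 21 genes of the interferon-gamma pathway 13 were called higher in KO MI than in Het MI and none lower, with a median log2 ratio of 0.96. Gbp2, an interferon-induced guanylate-binding protein, had 76.5 CPM in KO MI and 9.85 CPM in Het MI (2.96, 2.78 to 3.14). The members that belong to this response as textbook targets did not follow at that size: Irf1 was lower in KO MI, at 115 against 133 CPM (−0.20, −0.27 to −0.14), and Irf8 was 156 against 141 CPM (0.14, 0.08 to 0.20). Of the related factors only single genes are given, and the rest of their lists is not described for this comparison. Irf7, which amplifies type I interferon responses, had 48.0 and 20.3 CPM (1.24, 1.10 to 1.38). Batf2, which was not among the genes of its list with the most UMIs, had 3.69 and 2.10 CPM (0.81, 0.34 to 1.30).

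Sex differed between these libraries, so macrophages with an Xist UMI and no Y-linked UMI were compared alone (2655 in KO MI and 335 in Het MI). Batf3 was then called higher (0.75), Id2 came to −0.15 and Id3 to 0.18, and Cebpb stayed at −0.24. In the same kind of cells Het MI over Het sham kept the calls of Irf1 (0.88) and Id2 (0.69), while those of Id3 (0.57) and Klf4 (0.49) ended.

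Monocytes held calls of Id3 and Batf3 between the infarcted libraries. In classical monocytes 1 of 9 measured members, Batf3, was called higher (background 6.46%) and 1, Id3, lower (background 8.81%), and in non-classical monocytes Id3 was the 1 of 8 called (lower, background 9.62%). Id3 had 83.7, 182, 163 and 79.8 CPM in classical monocytes of KO MI, Het MI, KO sham and Het sham, which gave −1.12 (−1.38 to −0.86) for KO MI over Het MI. In non-classical monocytes it had 108, 294, 200 and 169 CPM, which gave −1.44 (−1.72 to −1.17). KO MI was low in both monocyte types, but in classical monocytes Het sham was as low.

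Batf3 in classical monocytes had 36.6 CPM in KO MI, 16.6 CPM in Het MI, 29.6 CPM in KO sham and 31.3 CPM in Het sham, from 100, 25, 56 and 67 UMIs. Here Het MI was the library apart: KO MI over Het MI was 1.14 (0.50 to 1.83) and Het MI over Het sham −0.91 (−1.64 to −0.23), while KO MI lay near both sham libraries. Of the 4 other Id and E protein genes measured in classical monocytes, Id1, Tcf3 and Tcf12 were called lower in KO MI than in Het MI. Id1, the Id protein most tied to BMP signals, had 13.9 against 28.5 CPM (−1.04, −1.71 to −0.38), on 38 and 43 UMIs. Mature neutrophil markers in classical monocytes summed to 2131, 897, 1005 and 1294 CPM in KO MI, Het MI, KO sham and Het sham and macrophage markers to 1059, 748, 784 and 740 CPM, and their part in these values was not tested.

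Id3 also varied between the pooled animals of single libraries. In KO sham, classical monocytes with Xist and no Y-linked UMI had 267 CPM of Id3 (60 cells) and those with Y-linked UMIs and no Xist had 99.8 CPM (110 cells), a log2 ratio of 1.42 (1.01 to 1.84). In Het sham the order was turned round, with 35.8 CPM (66 cells) and 93.7 CPM (96 cells), a log2 ratio of −1.39 (−2.20 to −0.65). Het MI showed 151 and 176 CPM (−0.23, −0.74 to 0.26). Differences of Id3 within a library were thus as large in classical monocytes as those between libraries, and in opposite directions in the 2 sham libraries. In non-classical monocytes the split gave −0.36 (−0.94 to 0.19) in Het MI, with 27 Xist cells. It gave 0.42 (0.09 to 0.75) in KO sham and −0.10 (−0.47 to 0.26) in Het sham. KO MI had no non-classical monocyte with a Y-linked UMI and could not be split. The split therefore cannot be set against the −1.44 between the infarcted libraries. In macrophages the same split gave −0.61 in Het MI, 0.72 in KO sham and −0.13 in Het sham for Id3, and −0.43, 0.30 and 0.18 for Id2, while Irf5 stayed between −0.14 and −0.03. Among Xist cells alone the classical monocyte ratio of Id3 was −1.63 for KO MI over KO sham and 2.90 for KO sham over Het sham. Het MI had 34 such classical monocytes, too few for the rule.

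Lymphocytes gave a few more calls between the infarcted libraries. B cells had less Id2, with 13.3 CPM in KO MI, 30.3 CPM in Het MI, 21.7 CPM in KO sham and 14.6 CPM in Het sham (KO MI over Het MI −1.19, −1.71 to −0.69; 1 of 8 members called, lower, background 9.15%). Macrophage markers in these B cells summed to 289, 249, 178 and 118 CPM, and their part was not tested. T cells had 52.0 CPM of Irf8 in KO MI, against 25.7, 20.7 and 29.4 CPM in Het MI, KO sham and Het sham (KO MI over Het MI 1.02, 0.48 to 1.57; 1 of 6 members called higher, background 6.44%). NK cell markers in T cells summed to 1467, 656, 769 and 604 CPM, and without T cells that held 2 or more NK markers the ratio was 0.23 and the call ended. Klf4 in T cells had 65.7, 135, 63.8 and 61.5 CPM, so that Het MI alone was high (KO MI over Het MI −1.04, −1.36 to −0.72; 1 of 6 members called lower, background 14.3%), and the call ended with the minimum marker level doubled (−0.40) and with Leiden clusters in place of gates (−0.53). Over all 8 cell types, 2 of 55 pairs of member and cell type were called higher and 4 lower, against 5.98% and 9.49% of all such pairs.

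**Figure D5:**
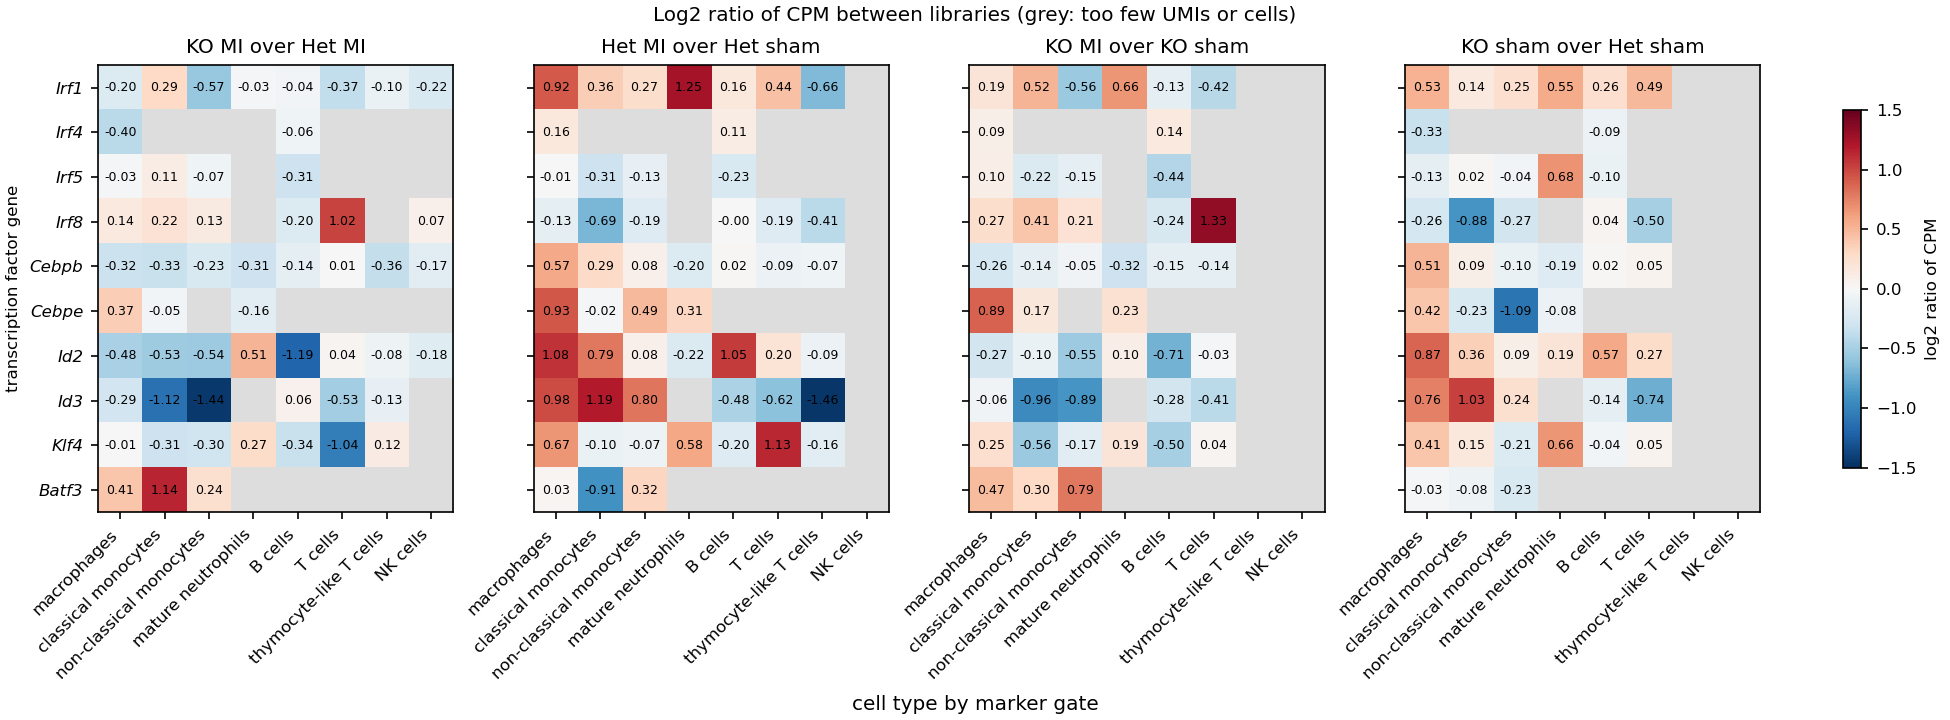
Log2 ratio of CPM for each gene (rows) and cell type (columns) in the 4 comparisons, the first-named library over the second, with grey where UMIs or cells were under the minimum. Id3 in monocytes is blue in KO MI over Het MI (−1.12 and −1.44) and in KO MI over KO sham (−0.96 and −0.89), and red in Het MI over Het sham (1.19 and 0.80).

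Macrophages of mice labelled KO were compared next (KO MI against KO sham), where sex cannot be told apart from infarction. Cebpe was the 1 of 10 called higher (background 5.95%) and none was called lower (background 4.99%), and the Cebpe call on 64 and 39 UMIs (0.89, with a lower bound of 0.29) ended with the minimum marker level doubled (0.45). The members' median was 0.15 and that of all genes −0.12. Batf3 had 26.9 CPM in KO MI and 19.4 CPM in KO sham (0.47, 0.32 to 0.62), Irf8 156 and 130 CPM (0.27, 0.21 to 0.33) and Klf4 200 and 168 CPM (0.25, 0.20 to 0.30). Id2, at 362 and 437 CPM (−0.27, −0.31 to −0.23), and Cebpb, at 759 and 912 CPM (−0.26, −0.29 to −0.24), were lower in KO MI. Both had been higher after infarction in the Het libraries (1.08 and 0.57). Among Xist macrophages alone, Id3 had 96.9 CPM in KO MI and 135 CPM in KO sham, Id2 365 and 491 CPM, and Klf4 202 and 154 CPM. In all macrophages Id3 had 96.4 CPM in KO MI and 100 CPM in KO sham.

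Monocytes of KO MI had less Id3 than those of KO sham, with −0.96 (−1.21 to −0.71) in classical cells, where it was the 1 of 9 members called lower (background 6.34%) and none was called higher. In non-classical cells Id3 gave −0.89 (−1.14 to −0.64), the 1 of 8 called lower (background 10.8%), and Batf3 was called higher on 25 and 22 UMIs (0.79, −0.10 to 1.69; background 5.1%), a call that ended under Leiden clusters (0.57) and without cells at the minimum number of markers (0.42). Mature neutrophils had 130 CPM of Irf1 in KO MI and 82.3 CPM in KO sham (0.66, 0.11 to 1.22; 1 of 5 called higher, background 9.74%). The Irf1 levels of Het MI and Het sham neutrophils were 133 and 56.0 CPM (1.25, 0.61 to 1.91; 1 of 5 called higher, background 7.69%), so both infarcted libraries were above both sham libraries, on 69, 59, 48 and 33 UMIs in KO MI, Het MI, KO sham and Het sham. The KO MI over KO sham call ended under 2 alternatives (0.53 and 0.54).

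The lymphocyte calls of KO MI against KO sham were Irf8 in T cells, higher at 1.33 (0.70 to 1.99; 1 of 6, background 16.4%), and Id2 in B cells, lower at −0.71 (−1.24 to −0.20; 1 of 8, background 8.18%). Without T cells that held 2 or more NK markers the Irf8 ratio was 0.83. The Id2 call in B cells ended when mixed-lineage droplets were kept (−0.05), with at most 5% mitochondrial UMIs (−0.56) and with the minimum marker level doubled (−0.55). Over 46 pairs of member and cell type, 4 were called higher and 3 lower, against backgrounds of 7.25% and 8.78%.

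Het MI monocytes had more Id3 than Het sham monocytes, with 1.19 (0.91 to 1.47) in classical and 0.80 (0.58 to 1.01) in non-classical cells, where it was the 1 of 9 called higher (background 5.15%). In classical monocytes 2 of 9 members were called higher, Id3 and Id2 (background 6.08%), and 2 lower, Irf8 and Batf3 (background 7.6%). Id2 had 201 CPM in Het MI and 117 CPM in Het sham (0.79, 0.54 to 1.03), and Irf8 had 75.7 and 122 CPM (−0.69, −1.02 to −0.36). Irf8 was highest in the Het sham library, and 88.1 and 66.2 CPM were found in KO MI and KO sham. Lymphocytes of Het MI and Het sham differed as well. Thymocyte-like T cells, which numbered 155, 61, 29 and 263 in KO MI, Het MI, KO sham and Het sham, had 57.0, 62.2, 80.5 and 172 CPM of Id3 (Het MI over Het sham −1.46, −2.05 to −0.93), so that Het sham was high. Irf1 was also called lower there, on 12 and 118 UMIs (−0.66, −1.65 to 0.20), which made 2 of 6 members called lower against a background of 16.1%; the Irf1 direction turned round under 2 other ways of gating. T cells of Het MI had more Klf4 (1.13, 0.83 to 1.44; 1 of 6 called higher, background 9.73%) and less Id3, at 50.8 against 78.0 CPM (−0.62, −1.01 to −0.24; 1 of 6 called lower, background 11.5%), and the Id3 call ended under 4 alternatives, with values of −0.58 to −0.10, while Leiden clusters gave −1.92. B cells of Het MI had more Id2 than those of Het sham (1.05, 0.65 to 1.47; 1 of 8 called higher, background 4.89%). Over 53 pairs of member and cell type in Het MI against Het sham, 11 were called higher and 5 lower, against backgrounds of 7.12% and 9.31%.

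Without infarction, KO sham macrophages had more Id2 and Id3 than Het sham macrophages. Id2 had 437 and 239 CPM (0.87, 0.82 to 0.92) and Id3 had 100 and 59.4 CPM (0.76, 0.65 to 0.86), 2 of 10 members called higher against a background of 4.02%, and none was called lower (background 5.03%). Irf1 (101 and 70.1 CPM; 0.53, 0.43 to 0.62), Cebpb (912 and 641 CPM; 0.51) and Klf4 (168 and 127 CPM; 0.41) were higher without reaching the rule, and Irf8 was lower (130 and 155 CPM; −0.26). The members' median was 0.42 and that of all genes −0.07. Outside the inflammatory state, under the same limit of its gate, Id2 came to 0.77 and Id3 to 0.61, both still called. Among Xist cells alone (715 in KO sham, 330 in Het sham) Irf1 passed the rule, at 113 and 70.8 CPM. Id2 had 491 and 252 CPM there and Id3 135 and 57.7 CPM. Cebpb (903 and 682 CPM) and Klf4 (154 and 125 CPM) did not reach the rule in these cells. In classical monocytes Id3 was called higher in KO sham (1.03, 0.75 to 1.31; 1 of 9, background 3.64%) and Irf8 lower (−0.88, −1.20 to −0.57; 1 of 9, background 7.75%). The other calls of KO sham against Het sham rested on few UMIs or on T cells. Mature neutrophils had more Irf5 (19 and 12 UMIs; 0.68, −0.44 to 1.85) and Klf4 (50 and 32 UMIs; 0.66, −0.01 to 1.34), 2 of 6 called higher against a background of 5.5%, and both intervals included 0. Non-classical monocytes had less Cebpe (9 and 23 UMIs; −1.09, −2.39 to 0.08; 1 of 9 called lower, background 5.06%). T cells had less Id3, at 46.9 against 78.0 CPM (−0.74, −1.18 to −0.31; 1 of 6 called lower, background 22.5%), and that call ended with at most 5% mitochondrial UMIs (−0.50) and with the minimum marker level doubled (−0.25). Over 48 pairs, 5 were called higher and 3 lower, against 4.88% and 8.49% of all pairs.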

How the data were processed

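The deposited matrices hold UMI counts per gene and cell barcode, made by the authors with Cell Ranger (version 4.0.0 per the file headers, 6.1.1 per the submitters' processing notes, which also name Seurat 4) against mm10/GRCm38. Library totals were 72002420 (KO MI), 60461796 (Het MI), 66587021 (KO sham) and 52701847 (Het sham) UMIs over 8379, 6157, 7787 and 7745 barcodes. Cells with at least 500 UMIs, at least 200 genes and at most 10% mitochondrial UMIs were kept (23961), and 18829 fell into 1 of 20 marker-gated classes.

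Gate levels were set after viewing marker distributions, without reading the 10 genes. Droplets that passed gates of more than 1 lineage (12.6% to 19.3% of cells) were left out as possible doublets, and no doublet caller was run. UMIs were summed by class and library and divided by the class total. No test was made, since each group is 1 library, and PCR and sorting error are not covered by the exact intervals. A count of 0 was set at a floor of 3 counts in ratios. The ratio and interval code was tested on simulated data.

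The members and gene lists were chosen with earlier results of these data known. All 10 members are named. Other genes were named as the 3 most like each member or from the fixed lists; a few list genes were picked after their values were seen. Alternatives were the mitochondrial limit, mixed droplets, marker level, Leiden clusters (resolution 2), the top cell, TMM and median-of-ratios scaling, the UMI minimum, and sex. Macrophages outside the inflammatory state, T cells with few NK markers, monocytes by sex, and cells above the minimum number of markers were added after seeing the data. Promoters and coordinates came from RefSeq and GENCODE tables of GRCm38. Software was Python 3.11, numpy 2.4.6, scipy 1.17.1, pandas 2.3.3, igraph 0.11.9, leidenalg 0.10.2 and matplotlib 3.10.9.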

Additional observations from a re-analysis of the deposited data

Results flagged for a closer look

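Each value here is the log2 ratio of KO MI over KO sham minus that of Het MI over Het sham for 1 gene in 1 cell type. A pair was listed when the 2 ratios pointed in opposite directions and the counting interval of each excluded 0. Other pairs with opposite signs are not listed, such as Irf8 in T cells (1.33 and −0.19) and Id3 in macrophages (−0.06 and 0.98). With 1 library in each group none of these differences was tested, and the intervals cover counting error only. Every difference uses the KO MI library, which held no macrophage with a Y-linked UMI, so sex cannot be told apart from it. Between cells with Xist and cells with Y-linked UMIs of a single library, Id3 in classical monocytes differed by 1.42 in KO sham and −1.39 in Het sham.

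In macrophages the difference was −1.35 for Id2 (−1.41 to −1.29), −0.83 for Cebpb (−0.87 to −0.79) and 0.40 for Irf8 (0.31 to 0.49). For Id2 the ratios behind it were −0.27 for KO MI over KO sham and 1.08 for Het MI over Het sham. In classical monocytes it was −2.15 for Id3 (−2.52 to −1.78), 1.10 for Irf8 (0.65 to 1.54) and −0.43 for Cebpb (−0.51 to −0.34). In non-classical monocytes Id3 gave −1.68 (−2.01 to −1.36). Lymphocytes gave −1.76 for Id2 in B cells (−2.39 to −1.13) and −0.86 for Irf1 in T cells (−1.40 to −0.32).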

How the results depend on the processing

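Of 69 single ratios recomputed under 14 alternatives (760 values), 37 were calls, and changes of direction were counted among those calls only. The 69 values at a minimum of 10 UMIs and the 61 at 100 UMIs reuse the same counts, so they could not change direction. The 2 changes were both for Irf1 in thymocyte-like T cells of Het MI over Het sham. Irf1 gave 0.52 with mixed droplets kept and 0.36 with the marker level doubled, against −0.66. Uncalled ratios could turn too, as for Id3 in macrophages of KO MI over Het MI among Xist cells (96.9 against 85.5 CPM). That Xist restriction moved 25 of 38 macrophage ratios outside their counting intervals, the most of any alternative, and ended 2 calls. Counts of member and cell type pairs that moved by more than 1.5 times were as follows, and the cause was not tested except that lower UMI minimums admit more pairs. For KO MI over Het MI the 2 higher became 6 with mixed droplets kept, 6 with the marker level doubled, 1 under Leiden clusters and 7 at a minimum of 10 UMIs, where the 4 lower became 9. For Het MI over Het sham the 5 lower became 3 with at most 5% mitochondrial UMIs and 3 without cells at the minimum number of markers. For KO MI over KO sham the 4 higher became 7 with mixed droplets kept and 8 at 10 UMIs, and the 3 lower became 8 under Leiden clusters, 5 without the top cell and 6 at 10 UMIs. For KO sham over Het sham the 5 higher became 13 with mixed droplets kept, 8 with TMM scaling, 8 with median-of-ratios scaling and 3 at 100 UMIs, and the 3 lower became 1 with the marker level doubled. The cell type with the highest level stayed the same for 9 or 10 of the 10 genes under each regating alternative. The median of all genes lay between −0.12 and −0.0033 in every comparison and cell type measured on the log2 scale. No paired analysis was possible because each group is 1 library.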
